A study of Mus musculus with 18 samples.

Results

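The genes described here encode subunits of oxidative phosphorylation or carry symbols of the same spelling. They were taken by symbol from both expression tables of the series: the complex I subunits (Nduf followed by a, b, c, s or v and a number), the succinate dehydrogenase subunits Sdha to Sdhd, every symbol that starts with Uqcr or Atp5, the cytochrome c oxidase subunits numbered 4 to 8 with a letter a to c, and the protein genes of mitochondrial DNA. Of 14332 genes with a row in either table, 101 matched. Among them, 8 are annotated or named as pseudogenes, and these rows stay in the counts and medians unless stated. The enteric glial cell (EGC) table held all 101 of them among 13452 genes, 88 nuclear and 13 mitochondrially encoded. The table of bone marrow-derived macrophages (BMDMs) held 96 among 11200 genes, 83 nuclear and the same 13 mitochondrial ones. The largest group mean of every member reached 1, so all of them passed the filter on low values. Sdhd is not analysed here. The subunits Cox4i1, Ndufab1 and Cyc1 fall outside these spellings and are given with the related genes at the end.

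The series asks how EGCs respond to interleukin-1β (IL-1β) and how the factors that they release act on macrophages. Primary EGC cultures from the muscularis externa of the small bowel of Bl6 mice received IL-1β at 10 ng/ml for 24 h or vehicle, with 3 libraries in each group. BMDMs from Il1R1-KO mice, which lack the IL-1 receptor in all 3 macrophage groups, were kept for 3 h in RPMI medium, in medium conditioned by vehicle-treated EGCs (CM-veh) or in medium conditioned by IL-1β-treated EGCs (CM-IL1), with 4 libraries in each group. By the paper's methods, EGCs were treated in a supplemented neurobasal medium with EGF. Both comparisons with RPMI may therefore also differ in base medium and supplements, which cannot be told apart from factors of the EGCs. The EGCs were grown out from neurospheres and differentiated in culture, the BMDMs were grown from marrow with CSF-1, and the labels give neither the age of the mice nor whether each library came from its own animal. Total RNA of whole cultures was sequenced with a 3′ end protocol. Its reverse transcription used oligo-dT primers, so a row counts only RNA that such primers reach. How far the rows of mt-Nd6 and of the mitochondrial rRNAs and transfer RNAs reflect the levels of these RNAs was not tested.

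Oxidative phosphorylation is carried by 5 complexes of the inner mitochondrial membrane. Complex I takes electrons from NADH and complex II takes them from succinate. Complex III passes them to cytochrome c, complex IV passes them on to oxygen, and complex V, the ATP synthase, uses the proton gradient built on the way to make ATP. Most subunits are encoded in the nucleus and imported, while a core of complexes I, III, IV and V is encoded by mitochondrial DNA, and complex II is encoded in the nucleus alone. In macrophages, a shift from oxidative phosphorylation towards glycolysis is a known part of the response to inflammatory stimuli such as lipopolysaccharide.

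The mitochondrial genes lie end to end, and some share bases. The longer stretches shared by 2 members on the same strand are printed because reads from them belong to both genes, so that the values of mt-Atp8 and mt-Atp6, or of mt-Nd4l and mt-Nd4, cannot be fully separated. The capitals mark the start codon of the downstream gene, and the sequences come from the GENCODE vM21 transcripts of GRCm38, the build that the submitters' processing notes call mm10.
mt-Atp8 and mt-Atp6 (chrM:7927-7969, plus strand): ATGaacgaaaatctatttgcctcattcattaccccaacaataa
mt-Nd4l and mt-Nd4 (chrM:10167-10173, plus strand): ATGctaa
The overlap is 43 bases long in the first pair and 7 bases long in the second. mt-Atp6 and mt-Co3 also share a single base. On opposite strands, mt-Nd5 and mt-Nd6 share 14 bases at the ends of both genes. mt-Nd6 is the only member encoded on the minus strand of the mitochondrial genome.

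Nuclear subunit genes are known for binding sites of NRF1, GABPA and YY1 near their starts. The letters GCGCATGC for NRF1, CCGGAAG for GABPA and AAGATGGC for YY1 were searched on both strands in RefSeq promoter windows of 300 bases, 250 before and 50 after the gene start (GRCm38.p6), and matches were counted for each motif on its own, also where 2 of them overlapped. At least 1 window was found for 66 of the 88 nuclear members, and a gene was counted where any of its windows matched. NRF1 letters stood in 10 of these 66 members (15.2%). The share was 5.81% of the 10221 genes in either table that had a window and 3.05% of all 27025 genes with a window. YY1 letters also stood in 10 (15.2%), against 5.13% and 3.19%. GABPA letters stood in 16 (24.2%), against 19.7% and 9.93%. At least 1 of the 3 motifs was present in 30 members (45.5%), against 27.8% of the genes in either table. The 5 members that held both NRF1 and GABPA letters are printed, with the NRF1 match in capitals in the first set and the GABPA match in the second. Ndufa6 is added because it had the lowest ratio of all members with an NRF1 match in the EGC comparison.
Atp5k (chr5:108434431-108434460, minus strand): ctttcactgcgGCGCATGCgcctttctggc
Atp5l (chr9:44920963-44920992, minus strand): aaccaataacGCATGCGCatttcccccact
Cox6a1 (chr5:115349102-115349131, minus strand): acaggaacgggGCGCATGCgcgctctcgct
Sdhb (chr4:140961206-140961235, plus strand): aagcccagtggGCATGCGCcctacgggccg
Uqcr11 (chr10:80406807-80406836, minus strand): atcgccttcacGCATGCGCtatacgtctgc
Ndufa6 (chr15:82354356-82354385, minus strand): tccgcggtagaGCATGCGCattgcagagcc
The GABPA matches of the same 5 genes follow.
Atp5k (chr5:108434369-108434398, minus strand): cctcagttgagCTTCCGGcgcgaaggtcac
Atp5l (chr9:44920936-44920965, minus strand): acttcaccgatCTTCCGGaccaacatgaat
Cox6a1 (chr5:115348956-115348985, minus strand): ccccatttccgCTTCCGGcgcgccggtgta
Sdhb (chr4:140961266-140961295, plus strand): gctcggagaaaCCGGAAGcggccttccact
Uqcr11 (chr10:80406869-80406898, minus strand): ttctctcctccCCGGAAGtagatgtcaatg
For YY1, the members with the highest and the lowest EGC ratio among the 10 are shown.
Ndufa9 (chr6:126849097-126849126, minus strand): cattgtgggagAAGATGGCggccgccgtcc
Atp5pb (chr3:105959248-105959277, minus strand): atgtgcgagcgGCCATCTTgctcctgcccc
These are matches of letters only, and no binding was measured in this series.

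The deposited values are the authors' means of each group, scaled so that a column adds up to between 996052 and 997403. No value per library was used, and the tables hold none. Whether it is scaled to the length of the gene is not stated, so levels of different genes are not ranked. The spread between libraries and their depth are unknown, no difference below was tested here, and every ratio is a description of 2 group means. A gene is counted as higher or lower where the ratio passes 1.5-fold, and counts at a lower limit (25% higher or 20% lower) and at 2-fold are given beside it. The tables were normalized separately, so levels of EGCs and BMDMs stand side by side only. AY036118, a single row, took 21.4% to 25.1% of the summed means of each group. In EGCs, the summed mean of 8 glial markers was 1561 with vehicle and 1324 with IL-1β. The 6 fibroblast markers summed to 17054 and 14409, the 6 neuronal ones to 479 and 335, and the 5 smooth muscle ones to 223 and 230. Of the 8 macrophage markers, 4 had a row there, with sums of 135 and 156, and Adgre1, Itgam, Fcgr1 and Mrc1 had none. BMDMs had rows for 8 of 8 macrophage markers (19260 in RPMI, 19381 with CM-veh and 17332 with CM-IL1) and for 0 of these 8 glial ones. In bulk cultures, fewer cells of a type and less RNA per cell cannot be told apart, and the part of these other cells in the ratios was not tested.

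In EGCs given IL-1β, the bulk of the nuclear subunit genes stayed close to the vehicle level, and a small set, led by accessory subunits of complex I, was below it by up to 3.69-fold. The median log2 ratio of the 88 nuclear members was 0.05, against -0.14 for all 13445 genes kept and -0.08 for the 8571 of these with a mean of at least 10. The interquartile range of the nuclear members was -0.15 to 0.14, and that of all genes was -0.51 to 0.14. Of all genes kept, 4.25% were higher and 21.2% lower past 1.5-fold. Among the 101 members, 0 were higher and 10 (9.90%) were lower, 8 of them nuclear. The share of lower members is thus below the background. With a mean of at least 10 required the background was 16.0% lower and 3.28% higher, and the same number of members, 10 of 95, was lower. The members just inside the limit were Ndufa4l2 (ratio 0.665) and Uqcrfs1 (0.657), and those just outside were Ndufa6 (0.673) and mt-Nd3 (0.679). Past the lower limit, 5 members were higher and 21 lower (background 11.6% and 35.8%). Past 2-fold, 0 were higher and 3 lower (background 1.01% and 9.97%). With each ratio divided by the median ratio of all genes, 0 members were higher and 4 lower past 1.5-fold, with 6.96% of all genes higher and 16.6% lower.

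**Figure D1:**
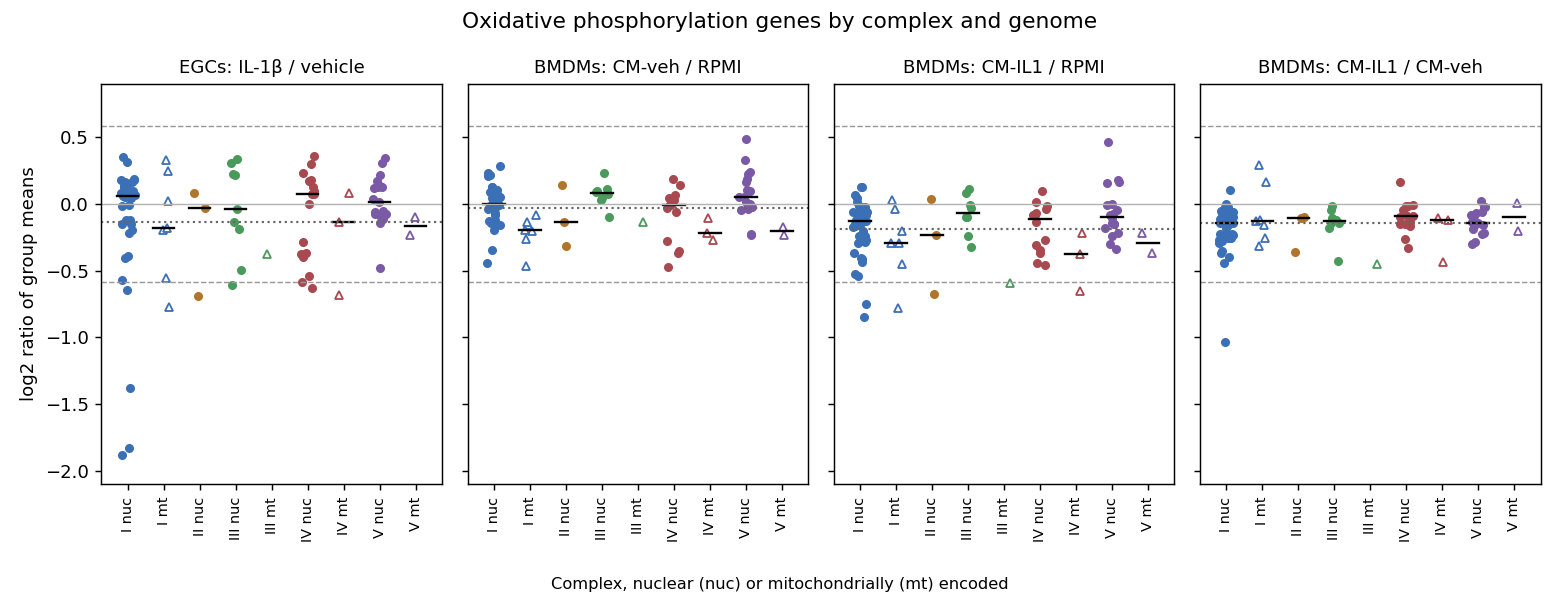
Log2 ratio of the group means (vertical axis) of each member in 4 comparisons, by complex; filled circles are nuclear and open triangles mitochondrially encoded genes, black bars are medians, the dotted line is the median of all genes kept and dashed lines mark 1.5-fold. Most nuclear members lie near 0 in EGCs with 3 complex I genes far below, and in BMDMs the triangles lie mostly below 0 after CM-veh and CM-IL1.

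The 3 lowest ratios were all in complex I, the NADH dehydrogenase. Ndufa1, an X-linked accessory subunit of the membrane arm (X:37187588-37191163, minus strand, GRCm38), had an authors' mean of 44.1 with vehicle and 11.9 with IL-1β, 3.69-fold lower. Ndufb1-ps went from 115 to 32.4, 3.55-fold lower. GENCODE files this row as a noncoding RNA from a shared promoter (chromosome 12, 101968090 to 101977068), and RefSeq names a protein-coding Ndufb1, so its reads may not be those of a subunit mRNA alone. Ndufb3, another accessory subunit of the membrane arm (chromosome 1, 58586384 to 58595964), had 66.7 and 25.7, 2.60-fold lower. These members stood apart from the rest of the complex, whose median log2 ratio over all 40 nuclear genes was 0.06, with 25 of 40 above a ratio of 1.

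Below them came Ndufc2, also a membrane arm subunit, with means of 147 and 94.3, 1.56-fold lower. Ndufa6, an accessory subunit of the LYR motif family, had 171 and 115 and just missed the limit. The ratios of 6 nuclear subunits of the catalytic core of complex I, singled out after their values were seen, lay between 0.875 (Ndufs1) and 1.07 (Ndufs8). Among them, Ndufs7 and Ndufs3 had ratios of 1.04, Ndufv1 of 1.05 and Ndufv2 of 1.06. Because these 6 were picked with their values known, no difference between core and accessory subunits is drawn from them. The highest ratio of the complex was that of Ndufs6b (1.27, means 13.7 and 17.5), a row that GENCODE annotates as a processed pseudogene and whose reads could belong to Ndufs6.

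Complex II, succinate dehydrogenase, links the citric acid cycle to the respiratory chain. Its catalytic flavoprotein Sdha had means of 90.0 and 95.3 (ratio 1.06), and its iron-sulphur subunit Sdhb had 96.6 and 94.6 (0.979). Sdhc, a membrane anchor of the complex (chromosome 1, 171127165 to 171150603, minus strand), had 110 and 68.1 and was 1.61-fold lower. The anchor therefore parted from the catalytic subunits within the same complex.

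In complex III, the cytochrome bc1 complex, 4 of 9 nuclear members were above a ratio of 1 and 5 below it. Uqcrfs1, the Rieske iron-sulphur protein that carries electrons towards cytochrome c, had 50.6 and 33.3, 1.52-fold lower. Uqcrc2, a core protein, had 103 and 72.8 (1.41-fold lower), while the other core protein Uqcrc1 had 49.6 and 57.9 (ratio 1.17). The highest member was the small subunit Uqcrq with 362 and 458 (1.27).

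Complex IV, cytochrome c oxidase, split in a similar way, with 9 of 17 nuclear members above 1. Cox7c was lowest with 29.6 and 19.2, 1.55-fold lower. Cox5b, a subunit on the matrix side, was highest among members with a mean of at least 10 (143 and 175, ratio 1.23), and its partner Cox5a had 130 and 152 (1.17). Ndufa4, once assigned to complex I and now counted with complex IV, had 71.9 and 55.7 (0.775). Its paralog Ndufa4l2, known as a hypoxia-inducible gene, had 109 and 72.7 (0.665), just past the limit.

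Complex V, the ATP synthase, had no nuclear member past 1.5-fold in EGCs. Its 19 nuclear rows had a median log2 ratio of 0.01. Atp5d, a subunit of the central stalk, was highest (129 and 163, ratio 1.27). The lowest with a mean of at least 10 was Atp5g3, which encodes the c subunit of the membrane ring (366 and 331, 0.906). The other c subunit genes Atp5g1 (91.2 and 87.9) and Atp5g2 (62.3 and 59.1) had ratios of 0.964 and 0.948, so all 3 genes for this subunit were within 10% of the vehicle level.

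The mitochondrially encoded genes of EGCs were spread to both sides. Together they took 1.78% of the summed means with vehicle and 1.70% with IL-1β, and the nuclear members took 1.04% and 1.05%. Of the 13 genes, 4 had ratios above 1 and 9 below, with a median log2 ratio of -0.18. Counted past 1.5-fold were mt-Nd6 (199 and 116, 1.71-fold lower), the complex I subunit of the minus strand, and mt-Co2 (1384 and 865, 1.60-fold lower), which holds the copper centre that accepts electrons from cytochrome c. How well the oligo-dT primers of the libraries reach mt-Nd6 was not tested. mt-Nd3 of complex I had 612 and 415 (0.679), and mt-Cytb, the only mitochondrial gene of complex III, had 1923 and 1485 (0.772).

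Other complex I genes of the same genome were at or above the vehicle level. mt-Nd2 had 1787 and 2249 (1.26), mt-Nd1 had 1698 and 2010 (1.18) and mt-Nd4 had 2460 and 2491 (1.01). Between them lay mt-Nd5 with 279 and 247 (0.883) and mt-Nd4l with 32.8 and 28.6 (0.873). In complex IV, mt-Co1 had 563 and 513 (0.912) and mt-Co3 had 3640 and 3844 (1.06). The complex V genes mt-Atp6 (3056 and 2604) and mt-Atp8 (64.5 and 60.2) had ratios of 0.852 and 0.933. Genes of the same complex and the same strand thus differed, from 0.679 for mt-Nd3 to 1.26 for mt-Nd2. The mitochondrial rRNAs beside them took 1.66% and 1.42% of the summed means.

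**Figure D2:**
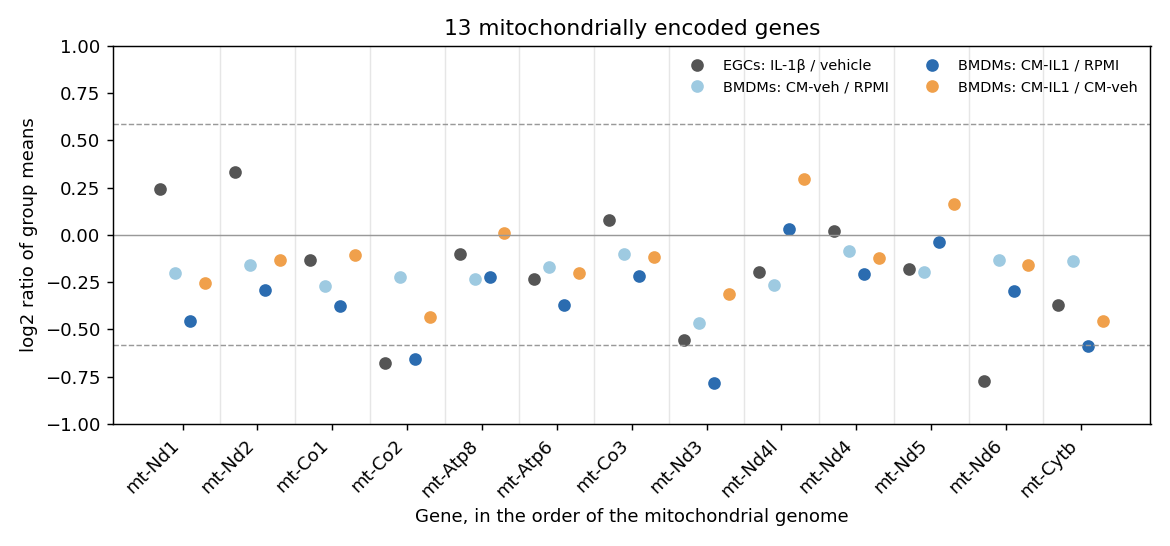
Log2 ratio of the group means (vertical axis) of the 13 mitochondrially encoded genes, in the order of the mitochondrial genome, in 4 comparisons; dashed lines mark 1.5-fold. With CM-veh against RPMI all 13 points lie below 0, and with CM-IL1 against RPMI 12 of 13 do, mt-Nd4l being the exception.

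In BMDMs with CM-veh, the nuclear members lay close to their RPMI level, while every mitochondrially encoded gene was slightly lower. The median log2 ratio of CM-veh against RPMI was 0.01 over the 83 nuclear members and -0.20 over the 13 mitochondrial ones, against -0.03 for all 11200 genes, and the nuclear median was -0.06 when AY036118 and the mitochondrial rows were left out of the scale. All 13 mitochondrial ratios were below 1, from 0.723 for mt-Nd3 to 0.944 for mt-Nd4. Past 1.5-fold, 0 of 96 members were higher and 0 lower, where 8% of all genes were higher and 10.8% lower. Past the lower limit, 2 were higher (Atp5d and Atp5g1) and 6 lower (background 17.9% and 23.5%), and past 2-fold there were 0 of either kind (background 2.97% and 3.01%).

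With CM-IL1 against RPMI, most members of both genomes were below 1. This was so for 69 of 83 nuclear and 12 of 13 mitochondrial members, with median log2 ratios of -0.10 and -0.30, and all genes had a median of -0.19. Past 1.5-fold, 0 of 96 members were higher and 6 (6.25%) lower, where 8.46% of all genes were higher and 22.4% lower. Past the lower limit, 1 was higher and 20 were lower (background 15.7% and 38.4%), and past 2-fold there were 0 of either kind (background 4.03% and 8.42%). The direction of the nuclear median depends on the scale: with each ratio divided by the median ratio of all genes it was 0.086, with 55 of 83 above 1. The mitochondrial median kept its sign under that scale (-0.11). It counted 1 member higher (Atp5d) and 2 lower past 1.5-fold, with 12.9% of all genes higher and 14.4% lower.

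The comparison of CM-IL1 with CM-veh shares its groups with the others and is given beside them. Its median log2 ratio was -0.13 over the nuclear members, -0.13 over the mitochondrial ones and -0.14 over all genes, so that relative to all genes both member medians were just above 0 (0.010 and 0.013). Past 1.5-fold, 0 members were higher and 1 was lower, where 2.71% of all genes were higher and 8.32% lower. Past the lower limit, 0 were higher and 10 lower (background 6.88% and 24.9%), and past 2-fold, 0 were higher and 1 lower (background 0.812% and 1.53%). That single gene was Ndufb4c, a row that GENCODE calls a processed pseudogene and RefSeq a protein-coding gene. It had means of 8.19 in RPMI, 9.97 with CM-veh and 4.87 with CM-IL1. Reads of Ndufb4 could be split with it, and Ndufb4 itself had 39.4, 39.6 and 35.0.

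Among the nuclear members with a mean of at least 10, Sdhc alone passed 1.5-fold in BMDMs. It had 59.9 in RPMI, 48.1 with CM-veh and 37.6 with CM-IL1, a ratio of 0.803 for CM-veh and 0.626 for CM-IL1 against RPMI. Of its partners in complex II, Sdha kept this order with ratios nearer to 1, and Sdhb did not. Sdha had 115, 105 and 97.9, with ratios of 0.910 and 0.850. Sdhb had 152, 168 and 156, with ratios of 1.10 and 1.03.

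In complex I, the genes that were low in EGCs were also at the low end in BMDMs, at smaller folds. Ndufa1 had 29.2 in RPMI, 25.5 with CM-veh and 20.0 with CM-IL1, 1.46-fold lower with CM-IL1 than in RPMI. Ndufb3 had 50.1, 47.4 and 34.8 (1.44-fold lower), and these 2 genes were the nearest members outside the limit. Ndufc2 had 86.8, 68.2 and 65.3, so that most of its distance from RPMI was already present with CM-veh. Ndufa6 had 139, 124 and 103. The same 6 core subunits lay between 0.818 (Ndufs3) and 0.979 (Ndufs8). Among means of at least 10, the highest ratio against RPMI was that of Ndufs8 with CM-veh (1.17) and of Ndufa11 with CM-IL1 (1.09), and Ndufa2, with 274, 278 and 299, was highest between the media (1.07). The pseudogene row Ndufa11b was past the limit (1.39 in RPMI and 0.773 with CM-IL1, ratio 0.556), at low means.

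In complex III of BMDMs, Uqcrc1 had the highest ratio with both media (74.0, 86.7 and 79.9, ratios of 1.17 and 1.08). The lowest was Uqcrfs1 with CM-veh (35.0 and 32.7, 0.933) and Uqcrc2 with CM-IL1 (51.9 and 41.5, 0.801). In complex IV, Cox7a2 was highest (158, 179 and 169). Cox7a2l, a factor that joins complexes III and IV into supercomplexes, had 281 in RPMI, 220 with CM-veh and 218 with CM-IL1, and was 1.28-fold and 1.29-fold lower. Among means of at least 10, the lowest ratio with CM-IL1 was that of Cox6c2 (23.9 and 17.6, 0.736), annotated as a processed pseudogene. Ndufa4 had 21.0, 20.8 and 16.5. Cox7c, low in EGCs, had 21.5, 20.6 and 20.4 in BMDMs, with a ratio of 0.952 for CM-IL1 against RPMI.

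In complex V of BMDMs, Atp5d had the highest ratio with either medium, as it had the highest of its complex in EGCs. It had 109 in RPMI, 153 with CM-veh and 150 with CM-IL1, ratios of 1.40 and 1.38, and the next highest member with CM-IL1 was Atp5g1. Atp5g1 had 76.5, 95.8 and 86.8, a ratio of 1.13 with CM-IL1, whereas Atp5g2, for the same mature c subunit, had 131, 111 and 112 (0.849 and 0.861) and Atp5g3 had 218, 235 and 192 (1.08 and 0.881). The c subunit genes thus lay on both sides of a ratio of 1 with either medium, and none passed 1.5-fold. The lowest ratio of the complex with CM-IL1 among means of at least 10 was that of Atp5mpl, a small proteolipid of the synthase (120 and 97.6, 0.812).

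The mitochondrially encoded genes of BMDMs took 2.13% of the summed means in RPMI, 1.91% with CM-veh and 1.69% with CM-IL1. The nuclear members took 0.874%, 0.892% and 0.826%. On the scale of the deposited means, the sum over the mitochondrial members was 2.43 times that over the nuclear ones in RPMI, 2.14 times with CM-veh and 2.04 times with CM-IL1. The order of the groups in the mitochondrial share was the same for complexes I (0.955%, 0.861% and 0.782%), III (0.175%, 0.159% and 0.116%), IV (0.633%, 0.570% and 0.506%) and V (0.363%, 0.322% and 0.281%). The mitochondrial rRNAs did not follow this order, with 5.17% in RPMI, 4.26% with CM-veh and 4.45% with CM-IL1.

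**Figure D3:**
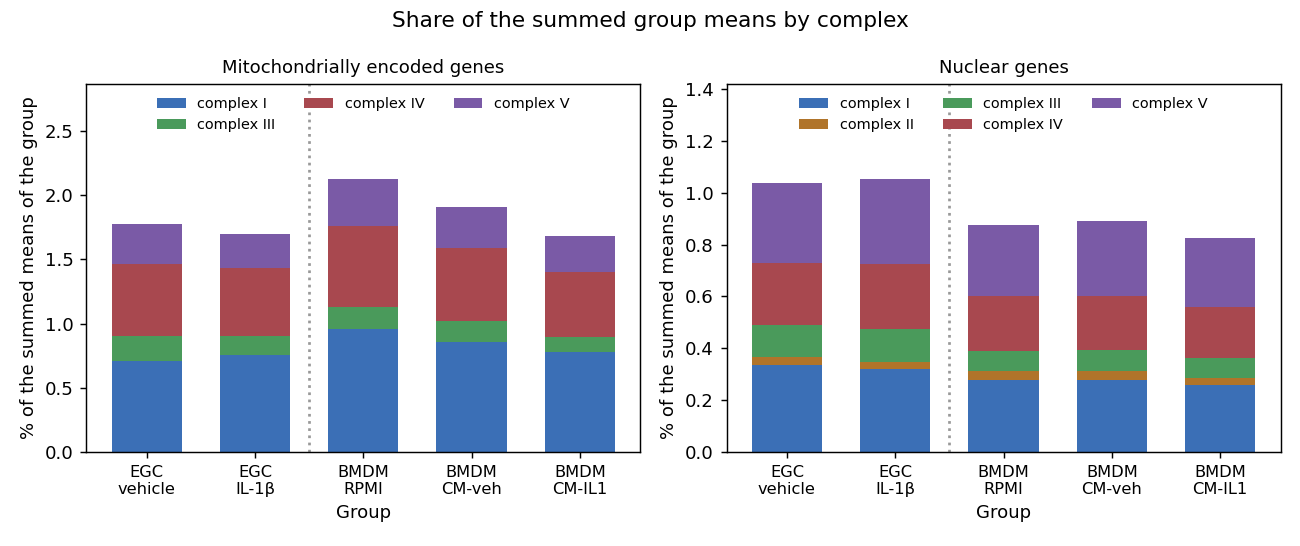
Percentage of the summed means of each group (vertical axis) taken by the mitochondrially encoded members (left) and the nuclear members (right), stacked by complex; bars are group values without error because no values per library exist in the tables, and the dotted line separates the tables. The mitochondrial share is 2.13%, 1.91% and 1.69% in the 3 BMDM groups and 1.78% and 1.70% in EGCs.

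By gene, the lowest ratios with CM-IL1 against RPMI were those of mt-Nd3 (380 in RPMI, 275 with CM-veh and 221 with CM-IL1, 1.72-fold lower), mt-Co2 (1280, 1099 and 813, 1.58-fold lower) and mt-Cytb (1740, 1582 and 1156, 1.51-fold lower). For mt-Nd3 the larger step lay between RPMI and CM-veh, and for mt-Co2 and mt-Cytb it lay between the media. mt-Nd1 had 1855, 1615 and 1355 (0.730), and mt-Nd2 had 2504, 2238 and 2044 (0.816).

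mt-Co1 had 983, 814 and 756 (0.769), mt-Co3 had 4046, 3769 and 3474 (0.859), and mt-Atp6 had 3533, 3140 and 2734 (0.774). These genes kept the order RPMI, CM-veh, CM-IL1 from high to low. mt-Nd4 had 3845, 3630 and 3334 (0.867), and mt-Nd6 had 378, 344 and 308 (0.815). The remaining genes went against that order between the media: mt-Nd5 had 514, 448 and 501 (0.975), mt-Nd4l had 33.0, 27.5 and 33.7 (1.02), and mt-Atp8 had 82.3, 70.1 and 70.5 (0.857).

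Several subunits have a general and a tissue-restricted isoform. Cox6a2 and Cox7a1, forms known from heart and skeletal muscle, had 4.49 and 1.69 in vehicle-treated EGCs and 4.05 and 2.42 in BMDMs in RPMI. Their general counterparts Cox6a1 (292 and 223) and Cox7a2 (208 and 158) are given beside them. In EGCs the general forms Cox6a1, Cox6b1, Cox7a2 and Cox8a had ratios of 1.13, 1.05, 1.13 and 1.05. Their restricted counterparts were lower, Cox6a2 at 0.688, Cox6b2 (19.9 and 15.1) at 0.757 and Cox8b (11.5 and 8.85) at 0.770. Cox7a1 was the exception with 1.69 and 2.17 (1.28). The 3 lower ones passed the lower limit (background 35.8%) and not 1.5-fold (background 21.2%). Cox6a2 and Cox7a1 had low means. Cox6b2, Cox8b and Ndufa4l2 had rows for EGCs alone, as did the pseudogene rows Atp5pb-ps (1.56 and 1.12) and Uqcrh-ps2 (3.77 and 3.43). With CM-IL1 against RPMI, the general forms of BMDMs had ratios of 0.941 for Cox6a1, 0.991 for Cox6b1, 1.07 for Cox7a2 and 0.972 for Cox8a.

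The EGC comparison and that of CM-IL1 with RPMI share no group, so their ratios can be set against each other across genes. Over the 76 nuclear members with a mean of at least 10 in all 5 groups, Pearson's r was 0.63 and Spearman's rho 0.48. Over all 5425 genes that met the same condition, these were 0.22 and 0.26. The other macrophage comparisons, which share groups with this one, gave r of 0.42 and rho of 0.34 for CM-veh against RPMI and r of 0.51 and rho of 0.36 for CM-IL1 against CM-veh over the same 76 genes. For CM-IL1 against RPMI without Ndufa1, Ndufb1-ps and Ndufb3, r was 0.59 and rho 0.41 over the other 73. Genes are not independent replicates, and the points share the protocol, the normalization and the base composition of each transcript, so these values are a description without a test. Of the 10 lowest of these nuclear members in each comparison, 7 were the same: Ndufa1, Ndufa6, Ndufb1-ps, Ndufb3, Ndufc2, Sdhc and Uqcrc2. For comparison, of the 714 lowest of the 5425 genes, the same fraction, 177 (24.8%) were shared. Of the nuclear members with a row in both tables that were lower past the lower limit, 9 were common to both, 69.2% of the 13 in EGCs and 64.3% of the 14 in BMDMs. Over the 10317 genes with a row in both tables, the shared genes made up 52.0% of those lower in EGCs and 42.3% of those lower in BMDMs. Over the 13 mitochondrial genes r was 0.41 and rho 0.41, with mt-Co2 and mt-Nd3 low in both.

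**Figure D4:**
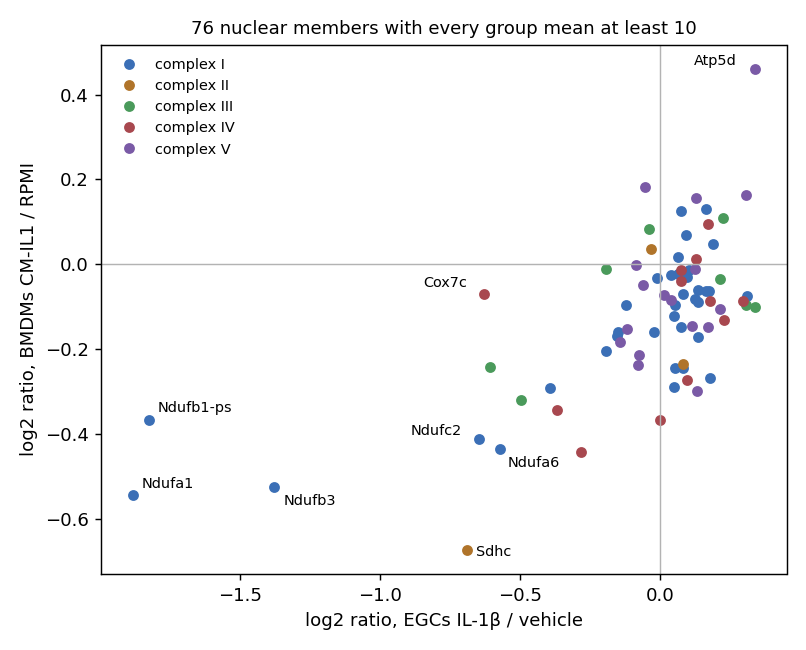
Log2 ratio in EGCs (IL-1β against vehicle, horizontal axis) and in BMDMs (CM-IL1 against RPMI, vertical axis) of 76 nuclear members, coloured by complex. Ndufa1, Ndufb3 and Sdhc lie low on both axes, Cox7c is low in EGCs alone, and Atp5d is the highest in BMDMs.

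The median EGC ratio was similar with and without the promoter letters. The 30 members with at least 1 motif had a median log2 ratio of 0.06 in EGCs and the 36 without had 0.07. The lowest log2 ratio, that of a single gene in each set, was -0.57 with a motif (Ndufa6) and -1.88 without (Ndufa1). By motif, the medians were 0.15 for NRF1, 0.06 for GABPA and 0.08 for YY1. These differences were not tested. With CM-IL1 against RPMI, the medians were -0.05 for the 30 and -0.15 for the 34 of the others that had a row. Of the 6 members whose NRF1 windows are printed above, Atp5k, Atp5l, Cox6a1, Sdhb and Uqcr11 had EGC ratios of 1.09, 1.24, 1.13, 0.979 and 1.24. The window of Ndufa6 (0.673) held NRF1 letters as well. Those of Ndufa1, Ndufb3, Ndufc2, Cox7c and Uqcrfs1, all lower past 1.5-fold in EGCs, held none of the 3 motifs. The same was true of 36 of the 66 members with a window. The other nuclear members past that limit had no window.

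Genes that build or feed the complexes were counted by lists of their own. Of 49 assembly factors, 1 was higher and 8 lower in EGCs past 1.5-fold, with a median log2 ratio of -0.17. The shares of 2.04% higher and 16.3% lower were below those of all genes (4.25% and 21.2%). Sco2, a copper chaperone, was the higher one (2.12 and 5.76). The lowest was Cox17, the copper chaperone of complex IV, with means of 46.7 and 4.08 (ratio 0.0874). Cox15, needed for the haem of the same complex, had 16.2 and 3.66 (0.226), and Tmem70, an assembly factor of complex V, had 30.9 and 16.2 (0.524). In BMDMs, with 47 factors measured, 2 were higher and 10 lower with CM-IL1 against RPMI (4.26% and 21.3%, against 8.46% and 22.4% of all genes). With CM-veh, 2 were higher and 2 lower (4.26% each, against 8% and 10.8%). Cox17 was not low there (15.9, 23.5 and 19.7). Sdhaf2, which places the cofactor of Sdha, had 22.3, 38.3 and 49.0 (2.20 with CM-IL1), and the complex I factor Ndufaf7 had 8.39, 5.49 and 3.05 (0.364). Between the media, 0 were higher and 6 lower (0% and 12.8%, against 2.71% and 8.32% of all genes).

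Of 13 citric acid cycle genes, 3 were lower and 0 higher in EGCs, a lower share of 23.1% that is near the 21.2% of all genes. Fh1, fumarate hydratase, which acts right after complex II in the cycle, had 21.0 and 0.664 (ratio 0.0316). Suclg2, a subunit of the succinyl-CoA ligase that makes the substrate of complex II, had 22.0 and 5.78 (0.263), and citrate synthase, Cs, had 45.4 and 13.8 (0.304). In BMDMs, Fh1 had 4.47, 4.02 and 2.52 and Suclg2 had 11.4, 7.38 and 6.55, and both were counted as lower with CM-IL1 against RPMI (15.4% of the list, against 22.4% of all genes). Cs had 19.6, 27.5 and 22.7. With CM-veh against RPMI, Suclg2 was the only cycle gene past the limit (7.69% lower, against 10.8% of all genes). Between the media it was Fh1 (7.69%, against 8.32%).

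The 79 genes of the mitochondrial ribosome, which translates the 13 mitochondrial mRNAs, had a median log2 ratio of 0.08 in EGCs. There 0 were higher and 8 lower (0% and 10.1%, against 4.25% and 21.2% of all genes). Mrpl27 was lowest with 13.5 and 2.41 (0.179). In BMDMs the medians were 0.03 with CM-veh and -0.12 with CM-IL1 against RPMI and -0.16 between the media. The only gene higher was Mrpl12 with CM-veh (48.6 in RPMI and 73.7), 1.27% of the list against 8% of all genes. In the same order of comparisons, 0, 2 and 2 were lower (0%, 2.53% and 2.53%, against 10.8%, 22.4% and 8.32% of all genes). Of the genes for the transcription and upkeep of mitochondrial DNA and their regulators, 25 were measured in EGCs and 24 in BMDMs. In EGCs 2 were higher and 4 lower (8% and 16%, against 4.25% and 21.2% of all genes). With CM-veh against RPMI, 4 were higher and 2 lower (16.7% and 8.33%, against 8% and 10.8%). With CM-IL1, 1 was higher and 3 were lower (4.17% and 12.5%, against 8.46% and 22.4%), and between the media 0 were higher and 4 lower (0% and 16.7%, against 2.71% and 8.32%).

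Tfam, which packs and transcribes mitochondrial DNA, had 26.2 and 25.0 in EGCs and 14.3, 10.6 and 9.65 in BMDMs (0.743 with CM-veh and 0.677 with CM-IL1). Tfb1m, a methyltransferase for mitochondrial rRNA, had 3.20, 0.789 and 0.984, at low means. Ppargc1b, a coactivator of nuclear genes for mitochondrial proteins, had 5.16, 4.78 and 2.36 in BMDMs (0.457 with CM-IL1 against RPMI). Nrf1 itself had 12.2 and 9.79 in EGCs and 11.0, 13.5 and 11.5 in BMDMs.

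Of the subunits and carriers outside the spellings used, 8 were measured in EGCs and 7 in BMDMs. Cox4i1, the main form of a large complex IV subunit, had 239 and 263 in EGCs and 310, 294 and 276 in BMDMs. Its hypoxia-linked paralog Cox4i2 had 2.01 and 0.887 in EGCs, at low means. It was the only gene of this list lower there past 1.5-fold (12.5%, against 21.2% of all genes). Cytochrome c1 of complex III, Cyc1, had 38.3 and 45.8 in EGCs and 29.9, 37.9 and 39.4 in BMDMs, and cytochrome c, Cycs, had 46.0 and 56.8, and 50.1, 64.8 and 55.6. Higd1a was higher with CM-IL1 (57.1 in RPMI and 85.8). Atpif1, the inhibitor of the ATP synthase, had 374, 296 and 260 in BMDMs and 218 and 242 in EGCs.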

How the data were processed

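The authors prepared 3′ end RNA-seq libraries from 18 samples, and the submitters' processing notes name cutadapt, STAR, Partek and mm10. The deposited values used here are the authors' least-squares mean of each group, a signal value scaled to a near-constant column total. The sources used here do not name the scale (CPM, TPM or other). The deposited tables also hold the authors' p-values, adjusted p-values, ratios and folds, which were not used. They hold 0 columns per library, so depth and precision are unknown and no test was run. Replicates entered only through the authors' means.

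Genes whose largest group mean reached 1 were retained (13445 of 13452 and 11200 of 11200). Ratios of means were formed without a pseudocount and counted past 1.5-fold, the limit in the study's methods. Alternatives were a lower limit (25% higher or 20% lower), 2-fold, a minimum of 10, no minimum, a pseudocount of 1, and 2 scales. Named genes are all mitochondrial members, Sdha to Sdhc, members past 1.5-fold with a mean of at least 10 (at most 12 each way), the highest and lowest per complex, isoform pairs and members in 1 table. Others were chosen after their values were seen. Of 101 members, 97 matched GENCODE vM21 by symbol, 6 were annotated as processed pseudogenes, and 2 with no match carry a pseudogene name. The members and lists were chosen with earlier results of these data known. Python 3.11.15 and pandas 2.3.3 were used. Only the count past 1.5-fold was checked, on copies of group means given known folds without noise.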

Additional observations from a re-analysis of the deposited data

How the results depend on the processing

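No paired analysis was possible because the tables give group means alone, and leaving out each replicate was not run for the same reason. Dividing each ratio by the median ratio of all genes kept moved the members past 1.5-fold from 10 to 4 in EGCs and from 6 to 3 with CM-IL1 against RPMI, of which 1, Atp5d, was higher. Under this scale the nuclear median log2 ratio was 0.19 in EGCs, 0.086 with CM-IL1 against RPMI and 0.010 with CM-IL1 against CM-veh, the last 2 with a changed sign. The mitochondrial median was -0.044, -0.11 and 0.013 in the same order, the last with a changed sign. It moved neither median with CM-veh against RPMI by 0.1. The members that passed the limit in EGCs under this scale were Ndufa1, Ndufb1-ps, Ndufb3 and mt-Nd6. The lower limit (25% higher or 20% lower) gave 26 members in EGCs, 8 with CM-veh and 21 with CM-IL1 against RPMI and 10 between the media, and 2-fold gave 3 in EGCs and 0 with CM-IL1 against RPMI. A minimum mean of 10 gave 0 between the media, since Ndufb4c then left the table. Rescaling without AY036118 and the mitochondrial rows, applied to the mitochondrial median after seeing the data, moved no median by 0.1 and no count by over 1.5 times, but it turned the nuclear median with CM-veh from 0.01 to -0.06. The pseudocount and no filter changed no median by 0.1. Leaving out pseudogene rows, Ndufa4l2, Cox7a2l and means under 10 changed no nuclear median by 0.1, and Ndufb1-ps stayed in. What depth limits cannot be stated, since the reads per library are unknown.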

Other observations

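The transfer RNAs of mitochondrial DNA, which stand between the protein genes, took 0.0464% of the summed means in vehicle-treated EGCs and 0.0486% with IL-1β, and 0.0440%, 0.0440% and 0.0463% in BMDMs in RPMI, with CM-veh and with CM-IL1. In BMDMs 16 RNAs of mitochondrial DNA other than the protein genes had a row, and 4 transfer RNAs (25% of the 16, against 8% of all genes) were higher past 1.5-fold with CM-veh against RPMI, mt-Th, mt-Tl1, mt-Tl2 and mt-Tn, at means between 0.790 and 3.03. mt-Ts1 had 185 and 185 in EGCs and 369, 351 and 374 in BMDMs. The 12S and 16S rRNAs had ratios in EGCs of 0.893 (mt-Rnr1, 2974 and 2655) and 0.849 (mt-Rnr2, 13528 and 11486). In BMDMs mt-Rnr1 had 9631, 7619 and 8245, and mt-Rnr2 had 41883, 34794 and 36120, so that both were lower with either conditioned medium than in RPMI.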
